A study of Mus musculus with 8 samples.

Results

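The enzymes that make serine, Phgdh, Psat1 and Psph, and those that pass its carbon to folate, Shmt1 and Shmt2, were followed in the livers of mouse pups that lack glycerol kinase. Their probe sets, groups of short probes that read one transcript region, were taken wherever the platform's annotation gave one of these 5 symbols and no other gene. These are 5 of the 18193 genes with a probe set of their own, and 15 of the 45037 probe sets that are not controls: 4 for Phgdh, 2 for Psat1, 1 for Psph, 4 for Shmt1 and 4 for Shmt2. A further 2 probe sets pair Phgdh with a predicted gene and were left out. Each of the 15 reached the signal minimum of 200 on at least 7 of the 8 arrays, so none was lost to the filter. The genes were chosen by their signals in the comparison of knockout with wild type, so their values in it are given as a description and are not tested.

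Liver RNA came from 4 knockout pups, which carry a targeted disruption of the glycerol kinase gene, and from 4 wild-type littermates matched for age. All were labelled male and inbred C57BL/6J and were sampled on day of life 3, when the knockouts show symptoms, low blood glucose and acidosis among them. Each liver was read on its own Affymetrix array, the labels name no treatment of either group, and how the allele was made is not given in the sources used here. The comparison asks which liver transcripts differ when glycerol kinase, which phosphorylates glycerol to glycerol 3-phosphate, is missing. The annotation pairs no probe set with the glycerol kinase gene, so its level did not check the labels.

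Serine is made from the glycolytic intermediate 3-phosphoglycerate in 3 steps. Phgdh oxidises it to 3-phosphohydroxypyruvate, Psat1 moves an amino group from glutamate onto that product, and Psph removes the phosphate to leave serine. Shmt1 in the cytosol and Shmt2 in mitochondria then convert serine to glycine and load the freed carbon onto tetrahydrofolate, from where it enters purine, thymidylate and methyl group synthesis. Liver also breaks serine down to pyruvate, and the synthesis enzymes are known targets of the amino acid stress factor ATF4.

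The promoters of Psat1 and Phgdh are shown because these genes encode neighbouring steps of the pathway. Each is the 250 bases before the RefSeq start (GRCm38.p6, minus strand), at chr19:15925060-15925309 for Psat1 and chr3:98339970-98340219 for Phgdh, with the capitals marking CCAAT boxes and, in Phgdh, 1 core of the antioxidant response element that NRF2 binds (TGACNNNGC, on the reverse strand as GCGGAGTCA).
Psat1: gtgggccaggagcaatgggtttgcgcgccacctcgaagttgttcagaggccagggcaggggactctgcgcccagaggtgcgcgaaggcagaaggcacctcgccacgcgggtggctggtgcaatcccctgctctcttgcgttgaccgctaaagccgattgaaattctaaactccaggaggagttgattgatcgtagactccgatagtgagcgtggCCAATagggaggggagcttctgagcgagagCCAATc
Phgdh: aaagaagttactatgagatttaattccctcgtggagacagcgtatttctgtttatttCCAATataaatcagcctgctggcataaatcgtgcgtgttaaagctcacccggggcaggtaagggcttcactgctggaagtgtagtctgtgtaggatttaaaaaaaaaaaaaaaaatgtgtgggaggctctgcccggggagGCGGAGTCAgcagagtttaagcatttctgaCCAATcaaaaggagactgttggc
The genes lie at chr3:98313171-98339969 (Phgdh), chr19:15905123-15925059 (Psat1), chr5:129765558-129787443 (Psph), chr11:60788897-60811265 (Shmt1) and chr10:127517123-127522444 (Shmt2). All 5 genes had a promoter window in the table, 6 windows in all because Psat1 has 2 starts. In the window shown, Psat1 had CCAAT boxes at 32 to 36 and at 2 to 6 bases before the start. Phgdh had them at 189 to 193 and at 19 to 23 bases. CCAAT was searched on both strands, and 33.8% of the 32851 promoter windows of this length hold it. The antioxidant response element core was in 10.2% of them and in 1 of the 6 member windows, that of Phgdh. The composite element of ATF4, searched as TGATGNAA on both strands, was in 3.45% of all windows and in 0 of these 6, and the E-box CACGTG in 6.02% and 0. The second Psat1 window and that of Shmt2 held none of the 4 motifs, and those of Psph and Shmt1 held CCAAT only, 2 and 1 times. A match describes letters in this window and no binding was measured.

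The arrays differed in ways the groups did not explain. By replicate number they were split into array set 1, replicates 1 and 2 of either genotype, and array set 2, replicates 3 and 4. Some of the controls followed that split. The spiked-in BioC control (3' probes) read 698 to 803 in set 1 but 965 to 1114 in set 2, and the transferrin receptor ratio (3' over 5' signal) was 6.50 to 6.72 in set 1 but 4.21 to 4.83 in set 2. The 5' BioB control and the actin and Gapdh ratios did not separate the sets. The array labelled wild type 4 goes against its label of male, with Xist at 10506 (196 to 396 on the other 7) and the Y-linked Eif2s3y at 1.3 (685 to 1164). For pyruvate carboxylase the 3' over 5' signal, which climbs as RNA is cut or copied short, was 7.03 on knockout 1 and 4.93 on knockout 2, while the remaining 6 arrays gave 2.06 to 3.46. This ratio also separated the sets, at 2.63 to 7.03 in set 1 and 2.06 to 2.33 in set 2. Of 11 hepatocyte markers 10 could be named and all 10 reached the signal minimum, and their summed signal ran from 183544 to 231014 in wild type and from 207278 to 278178 in the knockout. Of the named markers of exocrine pancreas 2 of 3 reached it, of kidney 1 of 4 and of bile duct 2 of 4. Over the 20395 probe sets that reached a signal of 200 on at least 4 arrays, 61 (0.299%) had a limma adjusted p under 0.05 between the groups, at a median log2 difference of -0.03 and a median standard error of 0.19.

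Psat1 had the largest difference among the 5 enzymes. On its brighter probe set (1451064_a_at) the wild-type signals were 2332, 3021, 2375 and 2208, and the knockout signals were 10015, 8013, 5397 and 4666, for replicates 1 to 4 in turn. The lowest knockout liver thus lay above the highest wild-type liver, and the spread in the knockout was wider than in wild type. The means were 2484 ± 365 and 7023 ± 2458 (SD, n = 4 each), 2.83 times as high in the knockout, and the log2 difference was 1.44 ± 0.23 (SE from limma, on log2(signal + 16)). The second probe set (1454607_s_at) gave 1686, 2596, 1696 and 1742 in the wild-type livers against 8556, 6393, 4251 and 3732 in those of the knockouts. Its log2 difference was 1.51 ± 0.26, and the order of the knockout livers was that of the first probe set. The suffix s marks probes that can match transcripts of more than 1 gene, so the second probe set may also read other RNA.

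Of the 15 member probe sets, 2 were among the 61 called over the whole array, both of Psat1, and for the same 2 the groups did not overlap, with the knockout higher. Over all probe sets tested 0.299% were called, 9.32% did not overlap, and 4.47% did not overlap with the knockout higher. With array set as a block 0.902% of all probe sets and 2 of the 15 were called. Since this contrast chose the members, nothing is read from these counts. The call for Psat1 was lost when any one array other than knockout 4 was left out, while its log2 difference then stayed between 1.25 and 1.61.

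**Figure D1:**
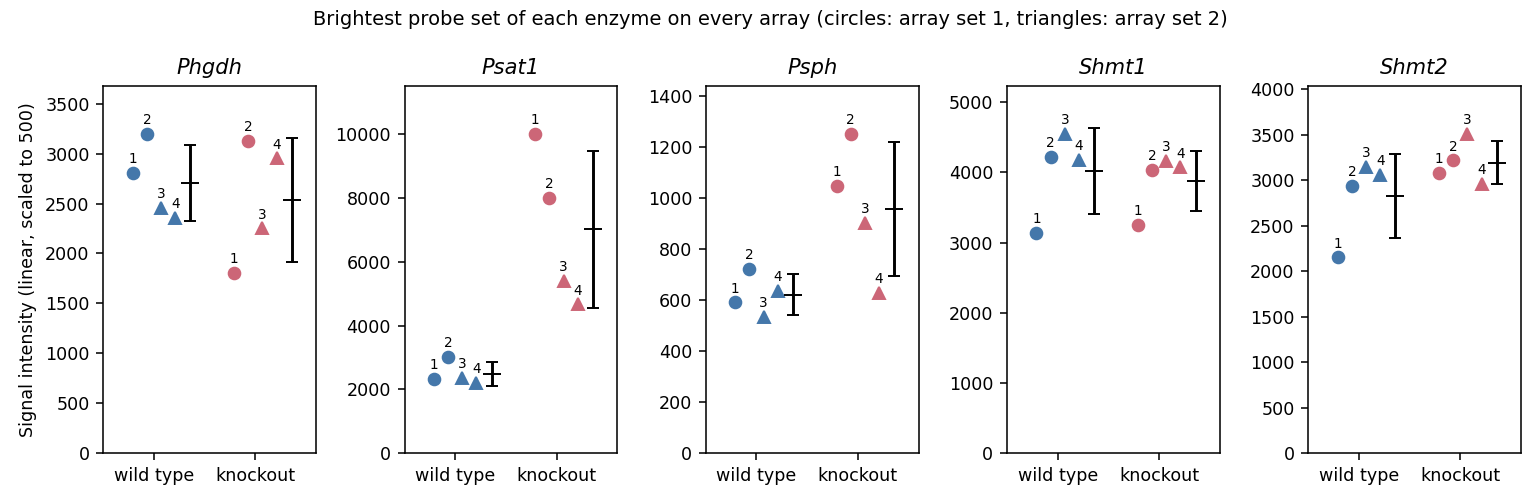
Signal intensity (linear, arrays scaled to a target of 500) of the brightest probe set of each enzyme on every array, with circles for array set 1, triangles for array set 2, replicate numbers above the points and bars for the mean ± SD (n = 4). The 4 knockout points of Psat1 sit between 4666 and 10015, above all wild-type points, whereas Phgdh, Shmt1 and Shmt2 overlap between the groups; the axes are separate because signals of different probe sets are not comparable.

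Array set and the pyruvate carboxylase ratio moved with the size of the Psat1 difference. It was 1.75 ± 0.24 in array set 1 and 1.13 ± 0.13 in array set 2 (SE), and the test of that difference, -0.62 ± 0.27, did not pass over all probe sets (limma adjusted p = 0.499). Knockout 1 and 2, with Psat1 signals of 10015 and 8013, were the arrays with the highest pyruvate carboxylase ratios. In both genotypes the ratio was higher in array set 1 than in array set 2, so array set and ratio cannot be fully told apart. Knockout 3 and 4 had ratios of 2.07 and 2.06, below every wild-type array, and their Psat1 signals were 2.17 and 1.88 times the wild-type mean. Without knockout 1 and 2 the log2 difference was 1.02 ± 0.16, and with the ratio as a covariate it was 1.22 ± 0.14. Without the array labelled wild type 4 it was 1.38 ± 0.26. For actin the 3' over 5' ratio was highest on knockout 1 (1.74), while knockout 2 (1.27) lay within the wild-type range of 1.24 to 1.32. For Gapdh knockout 1 and 2 gave 0.896 and 0.886, beside 0.783 to 0.886 in wild type.

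Markers of dividing cells ran opposite to Psat1 on knockout 1 and 2, but not on every array. The 9 of 10 markers that could be named all reached the signal minimum, and their summed signal ran from 41398 to 57334 in wild type and from 23240 to 50912 in the knockout. It was lowest on knockout 1 and second lowest on knockout 2, the arrays with the highest Psat1 signals. On the array labelled wild type 4 and on knockout 3 the sums were 41398 and 41210, and Psat1 stood at 2208 and 5397. On knockout 4 the sum was 50912, within the wild-type range, and Psat1 stood at 4666. Summed hepatocyte markers were highest on knockout 1 (278178). In whole liver, fewer cells of a type and less RNA per cell cannot be told apart, and the part of cell makeup in these values was not tested.

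**Figure D2:**
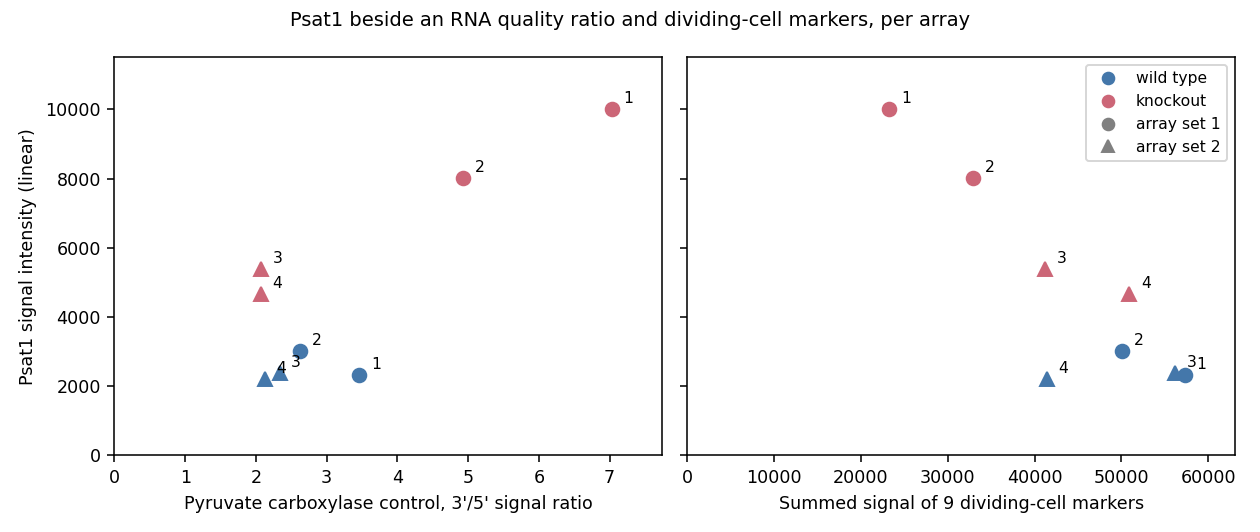
Psat1 signal intensity (linear, vertical axis) on each array against the 3'/5' ratio of the pyruvate carboxylase control (left) and the summed signal of 9 dividing-cell markers (right), with blue for wild type, red for knockout, circles for array set 1 and triangles for array set 2. Knockout 1 and 2 have the highest ratios (7.03 and 4.93), and knockout 3 and 4 lie above the wild-type arrays at ratios of 2.07 and 2.06.

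Psph, the last enzyme of the pathway, has 1 probe set (1415673_at). Its signals were 591, 723, 534 and 636 in the wild-type livers against 1048, 1251, 903 and 628 in those of the knockouts. Knockout 1 to 3 lay above all 4 wild-type livers, and knockout 4 lay within them. The means were 621 ± 79.7 and 958 ± 262 (SD, n = 4), 1.54 times as high in the knockout, and the log2 difference was 0.58 ± 0.20 (SE). It was 0.79 ± 0.24 in array set 1 and 0.36 ± 0.21 in array set 2, and 0.28 ± 0.20 without knockout 1 and 2. Without the array labelled wild type 4 it was 0.59 ± 0.23.

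Phgdh, which commits 3-phosphoglycerate to serine, gave no difference of that size on any of its 4 probe sets. The brightest (1426658_x_at) read 2808, 3198, 2454 and 2356 in the wild-type livers against 1806, 3130, 2253 and 2952 in those of the knockouts. Knockout 1, the liver with the highest Psat1 signal, had the lowest Phgdh signal, and the other 3 knockout livers lay within 2253 to 3130. The means were 2704 ± 382 and 2535 ± 616 (SD, n = 4), with a log2 difference of -0.12 ± 0.19 (SE). Over the 4 probe sets the log2 difference ran from -0.13 to 0.15, with 1 of them above 0, and no direction can be given: without knockout 1 all 4 were above 0 (0.04 to 0.31), and without the array labelled wild type 4 all 4 were below 0 (-0.35 to -0.01). All 4 carry the suffix x, for probes that can also bind other transcripts, and the annotation pairs the 2 probe sets left out with the predicted genes Gm8096 and Gm6756, so the reading of Phgdh is uncertain where such copies share probes.

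Psat1 and Phgdh were set against each other within each array. Relative to the wild-type mean of each gene, log2 Psat1 minus log2 Phgdh lay between -0.14 and 0.08 on the 4 wild-type arrays and at 2.58, 1.47, 1.38 and 0.78 on knockout 1 to 4. On these brightest probe sets the 2 genes thus kept nearly one ratio in wild-type livers, and all 4 knockout livers lay outside that range. The other Phgdh probe sets varied more between wild-type livers. On 1454714_x_at they ran from -0.64 to 0.40 around their mean, beside -0.16 to 0.29 for Psat1, so the even ratio holds for the brightest probe set only. For Psph minus Phgdh the knockout mean was 0.69 ± 0.59 and the wild-type mean 0 by construction, with an SD of 0.16, and the lowest knockout value was -0.11. Such a ratio shows unequal difference and does not show that either gene was constant.

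**Figure D3:**
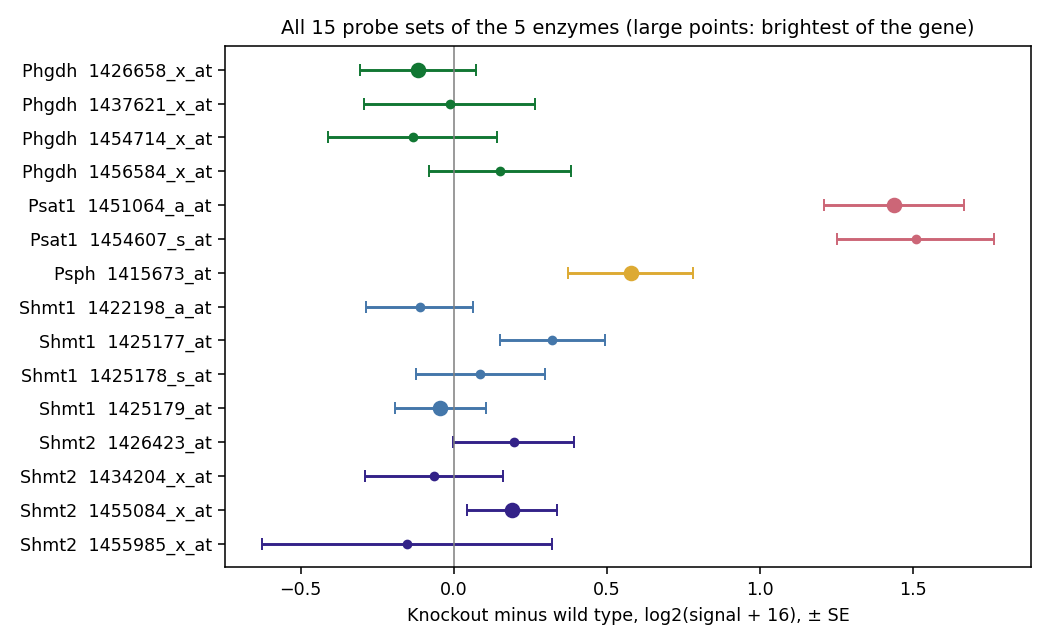
Knockout minus wild type on log2(signal + 16) for all 15 probe sets of the 5 enzymes (horizontal axis), with bars for the standard error from limma and large points for the brightest probe set of a gene. The 2 Psat1 probe sets stand at 1.44 and 1.51 and Psph at 0.58, and the other 12 lie between -0.15 and 0.32.

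Shmt1, the cytosolic hydroxymethyltransferase, read 3134, 4218, 4548 and 4180 in the wild-type livers against 3249, 4034, 4167 and 4072 in those of the knockouts on its brightest probe set (1425179_at). Replicate 1 was the lowest array of each group, and the groups overlapped fully. The means were 4020 ± 613 and 3881 ± 425 (SD, n = 4), with a log2 difference of -0.04 ± 0.15 (SE). The probe sets of Shmt1 disagreed: 1425177_at stood at 0.32 ± 0.17, with 3 of 4 knockout livers above the highest wild-type signal of 1996, and 1422198_a_at at -0.11 ± 0.17. Without the array labelled wild type 4 the brightest stood at -0.02 and the probe set 1425178_s_at went from 0.09 ± 0.21 to -0.13 ± 0.15.

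Shmt2, the mitochondrial enzyme, read 2150, 2939, 3148 and 3061 in the wild-type livers against 3084, 3217, 3509 and 2962 in those of the knockouts on its brightest probe set (1455084_x_at). Wild type 1 was the lowest array, and the other 3 wild-type signals lay close to those of the knockout. The means were 2824 ± 457 and 3193 ± 235 (SD, n = 4), with a log2 difference of 0.19 ± 0.15 (SE), or 0.23 without the array labelled wild type 4. The other 3 probe sets ran from -0.15 to 0.20, and those at -0.15 and -0.06 were dim, with wild-type means of 485 and 284. These dim probe sets and the brightest carry the suffix x, as those of Phgdh do. Of the 8 probe sets of the folate enzymes, 4 were above 0, at a median of 0.02 beside -0.03 over all probe sets tested, and 0 had groups that did not overlap.

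The synthesis enzymes were compared with the folate enzymes on each array, each gene taken relative to its wild-type mean. The mean of Phgdh, Psat1 and Psph minus the mean of Shmt1 and Shmt2 was 0.33, 0.18, -0.31 and -0.20 on wild type 1 to 4 and 0.81, 0.86, 0.27 and 0.30 on knockout 1 to 4. The highest wild-type array lay above knockout 3 and 4, so the groups overlapped. The knockout mean was 0.56 ± 0.32 above the wild-type mean, whose SD was 0.31 (n = 4 each). In both groups the arrays of set 1 lay above those of set 2, and within each set the knockout arrays lay above the wild-type arrays. Among the synthesis enzymes Psat1 contributed the most to this score and Phgdh the least.

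The knockout effect was tested for a difference between the array sets, a measure that did not enter the choice of the members. Over all probe sets tested 2 were called, 0.00981%, and 0 of the 15 member probe sets were (limma, adjusted p from 0.499 to 0.970). Before adjustment, 1 member probe set, of Psat1, had a p under 0.05, as did 9.92% of all probe sets. The member values ran from -0.62 to 0.89 on the log2 scale, array set 2 minus array set 1.

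For each enzyme the 3 genes with the most similar pattern were taken by Pearson correlation of log2 values over the 8 arrays, which share the difference between groups and array sets. Sypl (r = 0.995), Hsd17b13 (0.986) and Nudt19 (0.984) were closest to Psat1, and in all 3 the knockout arrays lay above the wild-type arrays, although each differed less, by 0.42, 0.59 and 0.30 on the log2 scale. Closest to Psph were Zcchc2 (0.986), Hjv (0.975) and the complex III subunit Uqcr10 (0.974). The genes closest to Phgdh were Pgm3, Ywhaq and Tmem9b (0.947 to 0.955), to Shmt1 they were Polr2a, Gps1 and Xab2 (0.983 to 0.987), and to Shmt2 they were Nipsnap1, St3gal3 and a second probe set of Nudt19 (0.976 to 0.987). These correlations are a description and carry no test.

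Other genes around serine were taken from 6 lists, each gene by its brightest tested probe set. Of 97 genes 76 were tested, and by limma 2 rose and 0 fell at an adjusted p under 0.05. Over all 10878 genes tested this way, 0.120% were called higher and 0.156% lower. The lists were drawn up with earlier results of these data known, so nothing is read from 2 of 76 beside these shares. The median log2 difference of the 76 was 0.10, with 46 above 0, beside -0.02 over all genes, and 17 of the 76 had an unadjusted p under 0.05, as did 15.5% of all genes tested. The counts at an unadjusted p given for single lists stand against that share, and with 5 to 17 genes a list they are a description.

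The glycolytic steps on either side of 3-phosphoglycerate held 1 of these. Pgam1, the mutase that interconverts 2-phosphoglycerate and 3-phosphoglycerate, the substrate of Phgdh, rose. Its signals were 3469, 2923, 3483 and 4589 in the wild-type livers against 8809, 6015, 8776 and 7109 in those of the knockouts. The groups did not overlap, and the means were 3616 ± 699 and 7677 ± 1363 (SD, n = 4), with a log2 difference of 1.08 ± 0.17 (SE; limma adjusted p = 0.0441). It was 1.19 in array set 1 and 0.98 in array set 2. The call was lost when any array but knockout 4 was left out, with log2 differences of 0.99 to 1.20. Of 5 tested genes of this list 1 rose and 0 fell. Pklr, the liver pyruvate kinase, stood at -0.63 ± 0.31 (adjusted p = 0.392), with -1.23 in array set 1, -0.03 in array set 2 and -0.28 without knockout 1. Pgk1, which makes 3-phosphoglycerate in glycolysis and was chosen after its value was seen, stood at 0.11 ± 0.12. Its 3 probe sets ran from 0.11 to 0.52.

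Genes that use or carry serine held the other. Slc38a2, a transporter of small neutral amino acids, serine among them, rose from 2775 ± 590 to 6826 ± 1223 (SD, n = 4; log2 difference 1.30 ± 0.18 SE; limma adjusted p = 0.0252). Its wild-type signals were 2848, 2388, 2285 and 3580 and its knockout signals 8158, 7378, 6450 and 5320, with knockout 1 the highest, as for Psat1. Leaving out replicate 2 or replicate 3 of either genotype lost the call, and the second probe set stood at 0.68. With replicate number as a block the call was also lost (limma adjusted p = 0.0527). Of the 17 tested genes 1 rose and 0 fell, and the median was 0.06. Sfxn2, of the sideroflexin family of mitochondrial carriers that includes a serine carrier, had a value of 0.74 ± 0.19 (adjusted p = 0.122), with groups that did not overlap. Its relative Sfxn1, that serine carrier, was chosen after its value was seen and stood at 0.02 ± 0.13.

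**Figure D4:**
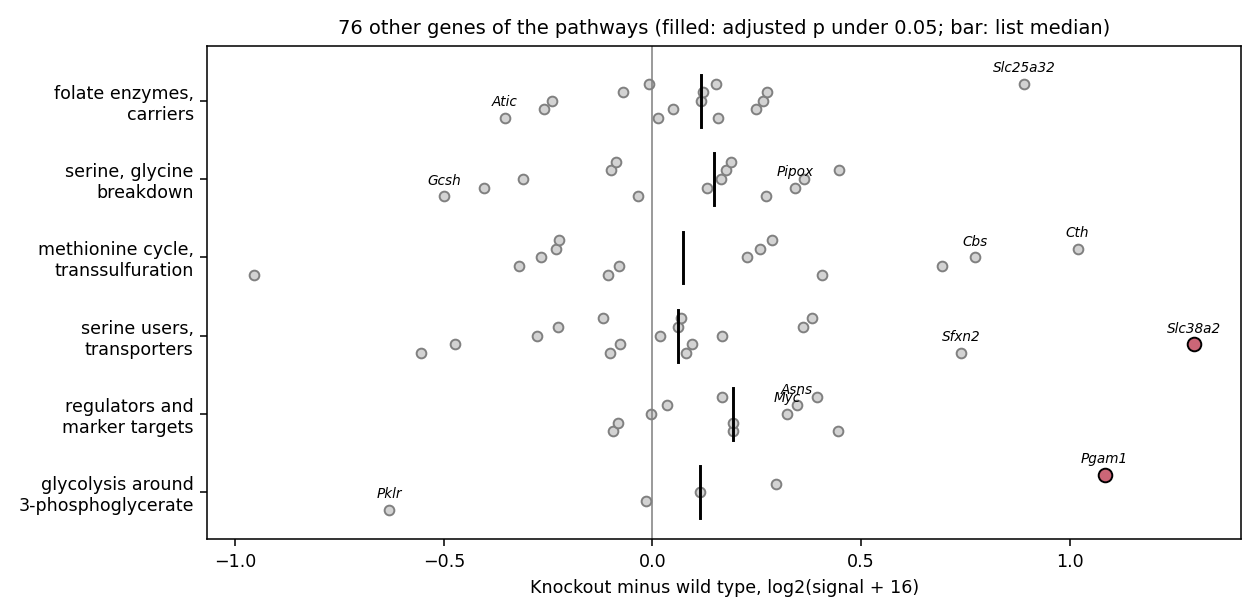
Knockout minus wild type on log2(signal + 16) (horizontal axis) for the 76 tested genes of the 6 lists, each by its brightest tested probe set, with black bars for the list medians, red points for genes with an adjusted p under 0.05 and names for the genes the text takes by rule. Slc38a2 (1.30) and Pgam1 (1.08) are the 2 that passed, and the list medians lie between 0.06 and 0.19.

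Folate enzymes and carriers had 0 of 15 past the threshold in either direction, at a median of 0.12 with 10 above 0 (limma; 2 at an unadjusted p under 0.05, against 15.5% of all genes). Slc25a32, the mitochondrial folate carrier, had signals of 212 ± 55.4 and 407 ± 92.8 (SD, n = 4) and a log2 difference of 0.89 ± 0.24 (SE; adjusted p = 0.131). This probe set was dim, at 252.7, 159, 170.9 and 267.3 on wild type 1 to 4. Wild type 2 and 3 thus lay below the signal minimum of 200, while the lowest knockout signal was 269.6. With a minimum of 400 the probe set was not tested. The other tested probe set of the gene stood at 0.40. Atic, of purine synthesis, stood at -0.35 ± 0.15 (adjusted p = 0.327). Mthfd2, the mitochondrial dehydrogenase that follows Shmt2 and is a known ATF4 target, was chosen after its value was seen and had a log2 difference of 0.12 ± 0.20.

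Serine and glycine breakdown had 0 of 14 past the threshold, at a median of 0.15 with 8 above 0 (limma; 4 at an unadjusted p under 0.05, against 15.5% of all genes). Gcsh, the H protein of the glycine cleavage system, stood at -0.50 ± 0.18 and Pipox, which oxidises sarcosine and pipecolate, at 0.34 ± 0.13 (adjusted p = 0.234 and 0.278). The value of Gcsh was -0.86 in array set 1 and -0.14 in array set 2, and -0.33 without knockout 1. The serine dehydratase gene Sds and its relative Sdsl had no probe set of their own, so the breakdown of serine to pyruvate was not read through them.

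The methionine cycle and transsulfuration had 0 of 14 past the threshold, at a median of 0.07 with 7 above 0 (limma; 5 at an unadjusted p under 0.05, against 15.5% of all genes). The values with the smallest p were those of the enzymes that join serine to homocysteine and cleave the product to cysteine, Cbs and Cth. Cth read 10284, 10239, 5637 and 10067 in the wild-type livers against 23159, 15814, 19630 and 14071 in those of the knockouts. The groups did not overlap, and the log2 difference was 1.02 ± 0.22 (SE; limma adjusted p = 0.0826). Cbs went from 3033 ± 467 to 5208 ± 902 (SD, n = 4), also without overlap, with a log2 difference of 0.77 ± 0.17 (adjusted p = 0.0839). Over 23 alternatives the adjusted p of Cth ran from 0.0409 to 0.292 and that of Cbs from 0.0322 to 0.323, with Cth called in 2 and Cbs in 1. Of the 8 ways to leave out 1 array, both passed only without knockout 4, as did Sfxn2 and Slc25a32, and with any other array left out none of these 4 genes passed.

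Among known regulators of serine synthesis and marker targets of ATF4, 0 of 11 passed in either direction and 0 had an unadjusted p under 0.05 (limma; 15.5% of all genes did), at a median of 0.19 with 8 above 0. Asns, the asparagine synthetase that ATF4 induces, stood at 0.35 ± 0.18 and Myc at 0.32 ± 0.17 (adjusted p = 0.404 and 0.420). Without the array labelled wild type 4 they stood at 0.16 and 0.46. Atf4 itself, chosen after its value was seen, had signals of 4744 ± 864 and 5310 ± 843 (SD, n = 4), with a log2 difference of 0.17 ± 0.16. These are transcript signals, and ATF4 protein was not measured. The list does not hold every target of ATF4, since the synthesis enzymes, Psat1 among them, and Mthfd2 are given above. Genes of the other lists, Slc38a2 and Cth among them, were not sorted by whether ATF4 induces them. The count of 0 of 11 therefore speaks for the genes of this list only.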

How the data were processed

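Signal intensity per probe set was deposited by the authors in 1 table; per the labels it came from GCOS 1.2, scaled to a target of 500 with default values. The array's raw scans were not used here. Symbols came from the platform's annotation updated through a mouse gene table (GRCm38.p6): of 45037 probe sets 34945 named 1 gene, 932 several and 9160 none.

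A probe set was tested if 4 or more of the 8 arrays, of whatever group, read 200 or above. The test was limma 3.58.1 in R 4.3.3 on log2(signal + 16), with eBayes moderation that follows intensity, and Benjamini-Hochberg adjustment ran over all 20395. The pseudocount understates fold changes of dim probe sets, and 8 arrays limit the precision. Each array is 1 liver, so the errors cover the spread between animals together with that of the assay. The script was tested on simulated data. A gene in a list stands by its brightest tested probe set, which was chosen over all arrays. Members, lists and markers were chosen with earlier results of these data known. Genes named are the members, up to 4 genes of a list that passed, or 2 by smallest p where fewer did, and 3 genes most like each member; others are said to be chosen after their values were seen. The labels name no batch. The array sets were split by replicate number, a split that some of the controls follow. Other pseudocounts, signal minimums, scalings, eBayes settings, blocks and left-out arrays were tried. Promoters are RefSeq's (GRCm38.p6). Python 3.11.15 with pandas 2.3.3 wrote the tables, and matplotlib 3.10.9 drew the figures.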

Additional observations from a re-analysis of the deposited data

Results flagged for a closer look

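In 5 of the 56 groups of 4 arrays checked, 1 array stood apart from the other 3 by more than Dixon's 95% critical value for its gap. Chance gives about 1 in 20 such groups.

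Among the serine enzymes, the second Psat1 probe set (1454607_s_at) was highest on wild type 2, at a signal of 2595.5, with the other wild-type arrays between 1685.8 and 1741.5. All 4 knockout signals lay above it, the lowest at 3731.8. For Shmt1, wild type 1 was lowest on 1422198_a_at, at 1197.5 against 1441 to 1471.4, and knockout 1 was lowest on 1425179_at, at 3249.1 against 4034.1 to 4166.9. Knockout 1 is also the array with the lowest Phgdh and the highest Psat1 signal.

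Among the other genes, Cth was lowest on wild type 3, at 5636.8 against 10066.6 to 10283.5 on the other wild-type arrays, and without that array its log2 difference was 0.81. Slc25a32 was lowest on knockout 4, at 269.6 against 434.1 to 469.2 on the other knockout arrays.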

How the results depend on the processing

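The Psat1 difference kept its direction in all 24 values, from 1.02 without knockout 1 and 2 to 1.75 in array set 1. Psph (0.28 to 0.79), Shmt2 (0.04 to 0.32) and the score of synthesis minus folate enzymes (0.29 to 0.67) also kept theirs. These values are of the brightest probe set or the mean of all of a gene. The Shmt2 probe sets 1434204_x_at and 1455985_x_at stood below 0, at -0.06 and -0.15. Phgdh (-0.33 to 0.10) and Shmt1 (-0.16 to 0.06) took both signs. The number of probe sets called over the whole array, 61, was less stable: 21 with no signal minimum, 111 with a minimum of 400, 18 without the intensity trend, 184 with array set as a block and 154 with that block and no wild type 4, 30 in array set 1 alone, 2 in array set 2 alone, 3 without knockout 1 and 2, and 2 to 334 with 1 array left out. The 2 calls among the other serine genes became 1 with no signal minimum, with the mean of all probe sets of a gene or with the replicate block, and 0 without the trend, within either array set or without knockout 1 and 2. With 1 array left out they numbered 0 to 6. The 2 calls for a difference between array sets became 1 with a pseudocount of 64 and 0 with quantile normalization, and 0 to 22 with 1 array left out. The cause was not tested, other than that fewer arrays were compared where some were left out. Same-numbered arrays correlated at 0.22, 0.40, 0.34 and 0.05, too few values to settle whether replicate numbers pair the animals. With the replicate block 56 probe sets were called and Slc38a2 was not (limma adjusted p = 0.0527), and not every array correlated best with its own number. Alternatives with knockout 1 and 2 left out or the pyruvate carboxylase ratio as covariate were chosen after seeing the data.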
